A study of Mus musculus with 3 samples.

Results

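The genes described are 8 regulators of the stability of PD-L1 protein, the checkpoint ligand that silences T cells through PD-1. They are Cmtm6, Cmtm4, Cops5, Usp22, Spop, Cul3, Stub1 and Gsk3b, found by symbol among the 32285 genes of the count tables, and all 8 had UMIs (unique molecular identifiers, each standing for 1 captured RNA molecule) in every library. The study used scRNA-Seq (10x Genomics 5′ V(D)J kit) on tumors of B16-F10, a mouse melanoma line, grown in C57BL/6J mice of 6 to 8 weeks. The B16-F10 cells carried shRNAs against Mib2, which encodes an E3 ubiquitin ligase, or a control shRNA. There were 2 libraries labelled shMib2, each made with a different shRNA (replicates 1 and 2), and 1 library labelled shCtrl, and each library pooled the tumors of 3 mice. Red blood cells were lysed in all 3 libraries. The shRNAs belonged to the injected B16-F10 cells, so immune and stromal cells came from hosts without them. With 1 shCtrl library, no spread among control tumors was measured: the single control library is taken to vary as the 2 shMib2 libraries do, with 1 residual degree of freedom, and p-values measure only the spread between these libraries.

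Mib2, the targeted gene, had 3.13 and 2.64 CPM in shMib2-labelled and 2.45 CPM in shCtrl-labelled melanoma cells, where CPM stands for UMIs of a gene per 1000000 UMIs of a class of cells in a library. Its RNA was no lower in either shMib2-labelled library, and the fitted difference of 0.19 (SE 0.13) on the log2 scale, shMib2 over shCtrl, did not pass the threshold in edgeR's quasi-likelihood test (Benjamini-Hochberg adjusted p = 0.502). Mib2 protein was not measured here, and the groups are called by their labels throughout.

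PD-L1 sits in the plasma membrane and is continually taken in and either recycled or destroyed. CMTM6 and its paralog CMTM4 are membrane proteins that bind PD-L1 and keep it from lysosomal degradation. GSK3β phosphorylates PD-L1 that lacks its sugar chains and so marks it for ubiquitination, SPOP is the adaptor that brings PD-L1 to ligases built on the scaffold CUL3, and STUB1 (CHIP) is a chaperone-bound E3 ligase. CSN5 (Cops5), the catalytic subunit of the COP9 signalosome, and USP22 remove ubiquitin. Much of this is known from human cancer cells. All of these steps act on protein, and the data here are RNA.

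The genes lie on 6 chromosomes of the mouse genome (GRCm38, GENCODE vM21 annotation). Cmtm6 is at chr9:114731116-114749344 on the plus strand, Cmtm4 at chr8:104348191-104395807 on the minus strand, Spop at chr11:95414080-95493406 on the plus strand and Gsk3b at chr16:38089001-38246084 on the plus strand. Usp22 is at chr11:61151785-61175055, Cul3 at chr1:80264923-80340480, Cops5 at chr1:10024601-10038168 and Stub1 at chr17:25830505-25833404, all on the minus strand. Exons of Cops5 overlap those of Cspp1, and exons of Stub1 those of Jmjd8, on the opposite strand in both cases. Whether the counting used strand is not given in the sources used here, so some UMIs of Cops5 and Stub1 could belong to these neighbors.

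Promoter windows of 250 bases before to 50 bases after the start site (RefSeq, GRCm38.p6) were at hand for 6 of the 8 genes, all but Cops5 and Usp22. The windows of Cmtm6 and Cmtm4 are shown because these paralogs differed most between melanoma and host cells, in opposite directions, and that of Stub1 because it differed most between melanoma cells rich and poor in mitosis RNA. The RefSeq start of Stub1 lies inside the GENCODE gene. They read 5′ to 3′, and capitals mark matches to the motifs searched.
Cmtm6 promoter, chr9:114730953-114731252 (plus strand): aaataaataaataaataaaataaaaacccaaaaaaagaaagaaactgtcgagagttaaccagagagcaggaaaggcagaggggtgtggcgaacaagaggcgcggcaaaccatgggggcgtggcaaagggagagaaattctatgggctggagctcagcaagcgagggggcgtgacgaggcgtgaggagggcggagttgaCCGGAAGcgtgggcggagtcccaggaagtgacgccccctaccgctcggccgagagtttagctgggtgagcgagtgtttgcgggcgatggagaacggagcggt
Cmtm4 promoter, chr8:104395758-104396057 (minus strand): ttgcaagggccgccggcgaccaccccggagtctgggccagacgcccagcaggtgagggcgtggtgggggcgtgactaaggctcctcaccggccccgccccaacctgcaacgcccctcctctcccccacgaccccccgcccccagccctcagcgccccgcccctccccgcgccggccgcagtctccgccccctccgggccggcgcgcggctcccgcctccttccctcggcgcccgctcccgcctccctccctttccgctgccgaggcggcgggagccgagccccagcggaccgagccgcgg
Stub1 promoter, chr17:25832870-25833169 (minus strand): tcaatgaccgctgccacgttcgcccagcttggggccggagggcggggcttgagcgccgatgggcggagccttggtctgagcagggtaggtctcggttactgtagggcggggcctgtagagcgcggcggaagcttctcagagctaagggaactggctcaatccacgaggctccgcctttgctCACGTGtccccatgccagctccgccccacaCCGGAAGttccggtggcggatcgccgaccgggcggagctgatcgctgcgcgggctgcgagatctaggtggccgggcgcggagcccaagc
The motifs were CACGTG (the E-box of the MITF and TFE family, a palindrome), CCGGAAG (ETS family), TTCNNNGAA (STAT) and the IRF motif of 2 GAAA blocks with 2 bases of any kind between them, each searched on both strands. CCGGAAG matched in Cmtm6, with its first base at position 199 of the window, and in Stub1 at position 212, and 8.86% of all 32851 promoter windows hold it. CACGTG matched in Stub1 at position 182, against 7.15% of all windows. TTCNNNGAA and the IRF motif, in 8.30% and 3.44% of all windows, matched in none of the 6. The windows of Cmtm4, Spop, Cul3 and Gsk3b held no match to any of the motifs, and neither did that of Cd274, the gene of PD-L1. The window of Cmtm4 was 79.7% G or C, higher than 98.8% of all windows, that of Stub1 68.3% and that of Cmtm6 55.7%, where the median of all windows was 52.7%.

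The libraries held 190904274 and 203298455 UMIs (shMib2) and 243926188 UMIs (shCtrl), and 22859 cells passed the filters. Melanoma cells were those with at least 5000 UMIs of which Dct and Pmel, 2 melanocyte genes, made up at least 0.5%: 5920 and 3467 cells in the shMib2-labelled libraries and 7411 in the shCtrl-labelled one. Clusters found without any of the genes listed here, and named from their markers as T cell-like, NK cell-like, B cell-like, mononuclear phagocyte-like and plasmacytoid dendritic cell-like, gave 1160 and 1794 immune cells in the shMib2-labelled libraries and 214 in the shCtrl-labelled one. The stromal cells, 313 and 304 against 24, were 1 fibroblast-like cluster. The cells differed in depth: the median cell had 24815 to 43703 UMIs in the melanoma class, 1247 to 2405.5 in the immune class and 7277.5 to 11383 in the stromal class. Dct and Pmel were present in immune sums at 2.67% to 4.97% of their melanoma level and in stromal sums at 1.75% to 3.46%, taken here as the level of melanoma RNA in the droplets of other cells. Few cells lay near the gate (24 within 10% above the limit in UMIs and 110 within 10% above that in Dct and Pmel), and 20 to 30 barcodes were shared by any pair of libraries. Levels are CPM summed over the cells of a class in a library. A 5′ count is not divided by gene length, so levels are compared between classes of cells and not between genes.

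Melanoma cells differed from the host cells around them in most of the 8 regulators. Against immune cells, 7 of 8 passed the threshold (edgeR's quasi-likelihood test with library as a block, Benjamini-Hochberg adjusted p under 0.05), 5 higher and 2 lower in melanoma cells (positive log2 differences mean higher in melanoma cells). Of all 12900 genes tested 74% passed, 38.2% higher and 35.8% lower, so 7 of 8 is near the background. Against stromal cells, 7 of 8 passed, 4 higher and 3 lower, where 69.3% of all genes passed (34.9% higher, 34.4% lower). The genes differed in size and direction: Cmtm6 was lower and Cmtm4 higher in melanoma cells than in either host class, by the largest log2 differences of the 8. The median log2 difference was 0.28 for the 8 genes against immune cells, beside 0.09 for all genes, and 0.18 against stromal cells, beside 0.06. These levels are shares of a class's UMIs, so they give neither the share of cells using a gene nor its RNA per cell. At full depth Cmtm6 had a UMI in 14.7% to 22.7% of melanoma cells. In immune cells with 1000 or more UMIs it was 5.22% to 9.58%. With these cells thinned to 1000 UMIs each, the shares were 0.519% to 0.709% in melanoma and 2.24% to 3.39% in immune cells.

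**Figure D1:**
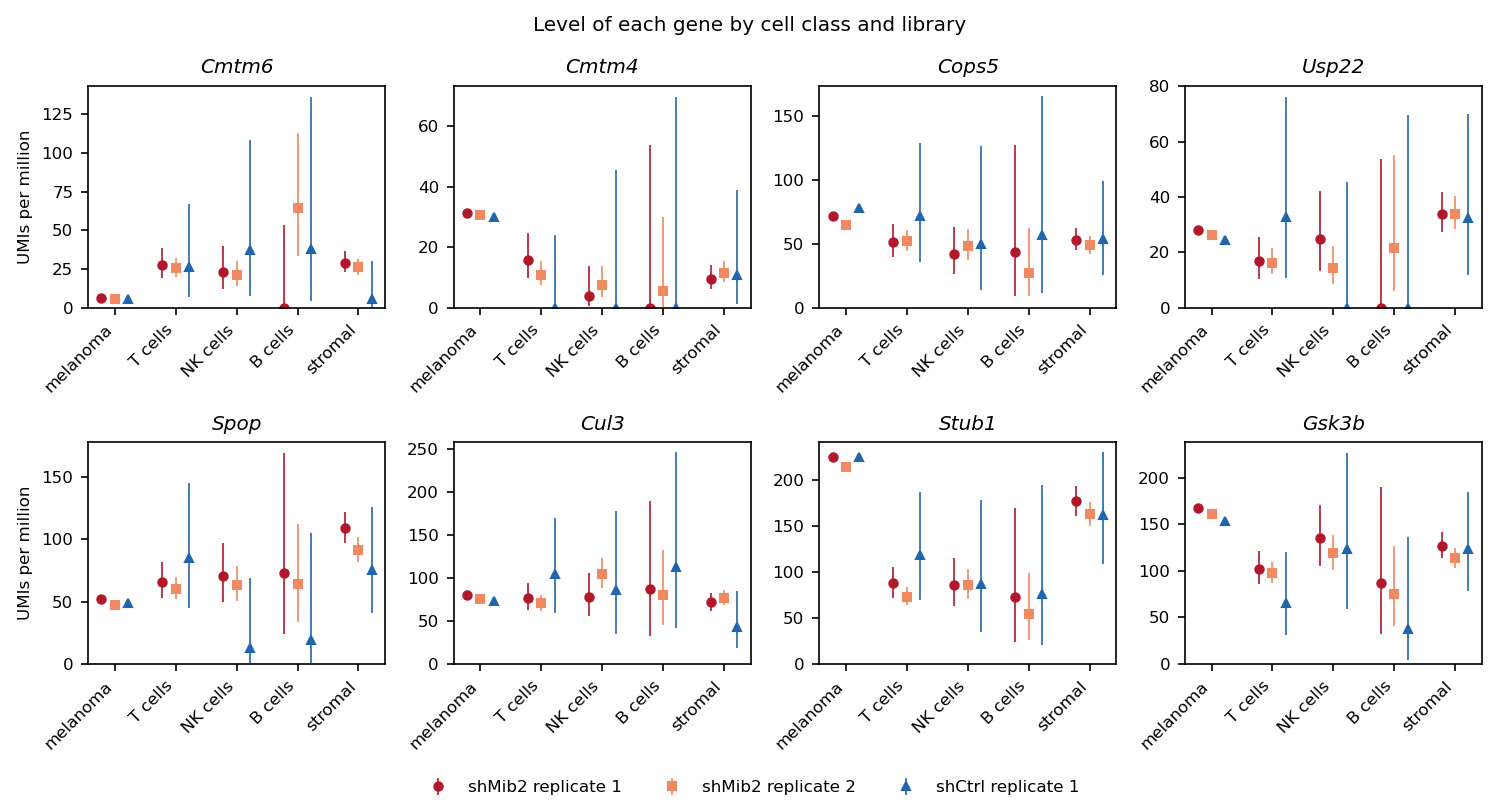
Level of each gene in CPM (vertical axis) in melanoma, T, NK, B and stromal cells, with 1 point for each library and bars for the exact Poisson 95% interval, which covers counting error only. Cmtm6 is lowest and Cmtm4 highest in melanoma cells among the classes shown, apart from, for Cmtm6, the stromal cells of the shCtrl-labelled library and the B cells of the library labelled shMib2 replicate 1 (0 UMIs). For Cmtm4, the intervals of NK and B cells with 0 UMIs reach above the melanoma level.

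Cmtm6 had 6.46 and 5.64 CPM in shMib2-labelled and 5.64 CPM in shCtrl-labelled melanoma cells, against 31.5 and 31.0 CPM in shMib2-labelled and 26.5 CPM in shCtrl-labelled immune cells and 29.1 and 26.0 CPM in shMib2-labelled and 5.37 CPM in shCtrl-labelled stromal cells. The melanoma values lay below the immune values in all 3 libraries, while the stromal cells of the shCtrl-labelled library, 24 cells with 1 UMI of Cmtm6, did not stand apart from melanoma cells. The fitted log2 difference was -2.56 (SE 0.15) against immune cells (edgeR adjusted p = 1.33e-09) and -2.19 (SE 0.17) against stromal cells (edgeR adjusted p = 2.87e-08), and both passed in 13 of 13 other settings. The melanoma values rest on 1014, 890 and 1179 UMIs.

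Cmtm4, its paralog, ran the other way, with 31.4 and 30.7 CPM in shMib2-labelled and 29.9 CPM in shCtrl-labelled melanoma cells, against 10.2 and 9.63 CPM in shMib2-labelled and 5.89 CPM in shCtrl-labelled immune cells and 9.44 and 11.5 CPM in shMib2-labelled and 10.7 CPM in shCtrl-labelled stromal cells. Every melanoma value was above every host value. The log2 difference was 1.49 (SE 0.15) against immune cells (edgeR adjusted p = 4.87e-07) and 1.48 (SE 0.16) against stromal cells (edgeR adjusted p = 9.38e-07), past the threshold in 13 of 13 and 12 of 13 other settings. Melanoma RNA in host droplets, scaled from Dct and Pmel, accounted for up to 25.2% of the Cmtm4 level of immune or stromal cells as a whole and up to 43.8% of that of a single class (NK cells of the library labelled shMib2 replicate 1), and subtracting it widened the per-library log2 ratio to immune cells to 1.66 and 1.66 in the shMib2-labelled libraries and 2.45 in the shCtrl-labelled one.

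Among other CMTM genes, 5 of 8 had counts enough to test. Cmtm5 was 4.37 (SE 0.28) higher on the log2 scale in melanoma than in immune cells, while Cklf, a chemokine-like factor, at -1.37 (SE 0.11) and Cmtm7, a partner of the B cell receptor, at -1.46 (SE 0.13) were lower. Against stromal cells Cmtm5 at 5.90 (SE 0.36) and Cmtm7 at 0.58 (SE 0.14) were higher and Cmtm3 at -1.64 (SE 0.12) was lower. In all, 2 were higher and 3 lower than in immune cells, and 2 higher and 2 lower than in stromal cells, by the same edgeR test. Among all genes 74% and 69.3% passed in these comparisons.

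Of the ubiquitin ligase genes, Stub1 had 225 and 214 CPM in shMib2-labelled and 225 CPM in shCtrl-labelled melanoma cells, against 85.7 and 77.7 CPM in shMib2-labelled and 97.2 CPM in shCtrl-labelled immune cells and 177 and 162 CPM in shMib2-labelled and 161 CPM in shCtrl-labelled stromal cells. The 3 classes did not overlap. The log2 difference was 1.20 (SE 0.13) against immune cells (edgeR adjusted p = 1.13e-06, past the threshold in 13 of 13 other settings) and 0.34 (SE 0.13) against stromal cells (edgeR adjusted p = 0.0278, 7 of 13 settings).

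Spop was lower in melanoma cells, with 51.8 and 47.6 CPM in shMib2-labelled and 48.9 CPM in shCtrl-labelled melanoma cells, against 78.0 and 75.1 CPM in shMib2-labelled and 53.0 CPM in shCtrl-labelled immune cells and 109 and 91.6 CPM in shMib2-labelled and 75.2 CPM in shCtrl-labelled stromal cells. Each melanoma value was below each host value, most narrowly in the shCtrl-labelled library. The log2 difference was -0.77 (SE 0.11) against immune cells (edgeR adjusted p = 1.33e-05) and -1.02 (SE 0.11) against stromal cells (edgeR adjusted p = 7.86e-07), both past the threshold in 13 of 13 other settings.

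Cul3, the scaffold that SPOP works on, had 80.3 and 75.1 CPM in shMib2-labelled and 73.2 CPM in shCtrl-labelled melanoma cells, against 75.9 and 76.9 CPM in shMib2-labelled and 94.3 CPM in shCtrl-labelled immune cells and 71.7 and 76.9 CPM in shMib2-labelled and 43.0 CPM in shCtrl-labelled stromal cells. These ranges overlapped. The log2 difference of -0.21 (SE 0.10) against immune cells did not pass (edgeR adjusted p = 0.0850, though it did in 4 of 13 other settings), nor did 0.02 (SE 0.11) against stromal cells (edgeR adjusted p = 0.865).

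Of the deubiquitinating genes, Cops5 had 71.5 and 64.7 CPM in shMib2-labelled and 78.2 CPM in shCtrl-labelled melanoma cells, against 47.3 and 50.0 CPM in shMib2-labelled and 70.7 CPM in shCtrl-labelled immune cells and 53.2 and 48.8 CPM in shMib2-labelled and 53.7 CPM in shCtrl-labelled stromal cells. Melanoma cells overlapped immune cells through the shCtrl-labelled library. The log2 difference of 0.23 (SE 0.10) against immune cells (edgeR adjusted p = 0.0497) passed in only 3 of 13 other settings, and 0.36 (SE 0.10) against stromal cells (edgeR adjusted p = 0.00748) in 8 of 13.

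Usp22 had 28.2 and 26.4 CPM in shMib2-labelled and 24.5 CPM in shCtrl-labelled melanoma cells, against 18.3 and 18.4 CPM in shMib2-labelled and 23.6 CPM in shCtrl-labelled immune cells and 34.0 and 33.9 CPM in shMib2-labelled and 32.2 CPM in shCtrl-labelled stromal cells. It was highest in stromal cells, where its log2 difference was -0.39 (SE 0.12) (edgeR adjusted p = 0.00782, 9 of 13 settings). The difference from immune cells, 0.33 (SE 0.13), was near the threshold (edgeR adjusted p = 0.0305, 6 of 13 settings).

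Gsk3b, the kinase, had 167 and 161 CPM in shMib2-labelled and 153 CPM in shCtrl-labelled melanoma cells, against 106 and 99.7 CPM in shMib2-labelled and 76.6 CPM in shCtrl-labelled immune cells and 127 and 114 CPM in shMib2-labelled and 124 CPM in shCtrl-labelled stromal cells. All melanoma values were above all host values. The log2 difference was 0.55 (SE 0.13) against immune cells (edgeR adjusted p = 0.00181, past the threshold in 13 of 13 other settings) and 0.39 (SE 0.13) against stromal cells (edgeR adjusted p = 0.0179, 9 of 13 settings).

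Smaller differences depended on scaling. With DESeq2's size factors in edgeR the median over all genes moved to -0.09 against stromal cells, where 4 of 8 regulators passed, and with DESeq2 itself to -0.12 with 4 of 8. Of all genes called against stromal cells, 50.4% were higher in melanoma cells, and 40.4% with DESeq2. Leaving out the library labelled shMib2 replicate 1 or that labelled shMib2 replicate 2 left 3 of 8 against stromal cells, and leaving out the shCtrl-labelled library left 7.

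**Figure D2:**
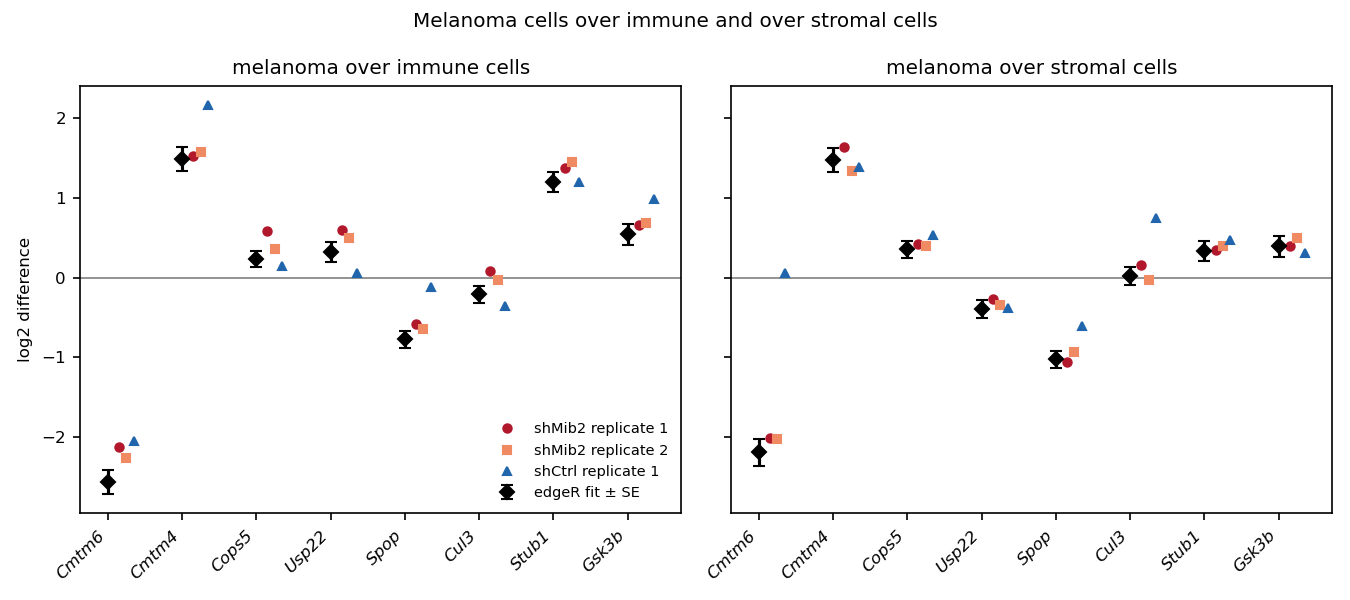
Fitted log2 difference of melanoma cells over immune cells and over stromal cells (vertical axis) for each gene, with bars for the standard error and points for the ratio within each library (1 CPM added). Cmtm6 and Spop lie below 0 in both comparisons and Cmtm4 above 0 in both, and the shCtrl-labelled point of Cmtm6 over stromal cells lies near 0.

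Cd274, which encodes PD-L1 itself, had 3.38 and 3.17 CPM in shMib2-labelled and 1.67 CPM in shCtrl-labelled melanoma cells, against 37.5 and 46.1 CPM in shMib2-labelled and 17.7 CPM in shCtrl-labelled immune cells and 6.42 and 6.30 CPM in shMib2-labelled and 5.37 CPM in shCtrl-labelled stromal cells. It was lower in melanoma cells than in immune cells in every library, with a log2 difference of -3.88 (SE 0.14) (edgeR adjusted p = 6.16e-12). The difference from stromal cells, -1.02 (SE 0.26), reversed to 1.27 when each cell was thinned to 1000 UMIs, a setting with few UMIs of this gene.

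Across the 5 classes with at least 20 cells in every library (melanoma, T, NK, B and stromal cells), the order of levels differed from gene to gene (mean ± SD in CPM, n = 3 libraries). For Cmtm6 it was B cells at 34.1 ± 32.4, NK cells at 27.0 ± 8.81, T cells at 26.5 ± 1.21, stromal cells at 20.1 ± 12.9 and melanoma cells at 5.92 ± 0.475. The 4 host classes overlapped each other, and melanoma cells lay below every T and NK cell value. For Cmtm4, melanoma cells at 30.7 ± 0.770 lay above every measured value of the 4 host classes, which ran from stromal cells at 10.6 ± 1.07 to B cells at 1.79 ± 3.10 and overlapped. Some of these values were 0 at low depth. They were the shCtrl-labelled NK cells (80891 UMIs of all genes) and the B cells of shMib2 replicate 1 (68800) and of shCtrl (52885). There a count of 0 allows more than the melanoma level. T cells had 20 and 33 UMIs of Cmtm4 in the shMib2-labelled libraries and 0 in the shCtrl-labelled one, where a count of 0 allows up to 19.6 CPM.

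For Stub1 the order was melanoma cells at 221 ± 6.12, stromal cells at 167 ± 8.64, T cells at 92.7 ± 22.8, NK cells at 85.9 ± 0.582 and B cells at 67.4 ± 11.9, and only T and NK cells overlapped as neighbors. For Gsk3b, melanoma cells at 161 ± 6.98 were above NK cells at 126 ± 8.23 and stromal cells at 122 ± 6.88, which overlapped, and these above T cells at 88.5 ± 20.1 and B cells at 66.8 ± 25.8, which overlapped too. Spop was highest in stromal cells at 92.0 ± 16.9 and T cells at 70.4 ± 13.0, which overlapped, and melanoma cells at 49.4 ± 2.16 lay below all values of both. Usp22 in stromal cells, 33.4 ± 0.965, was above melanoma cells, 26.4 ± 1.81, without overlap. Cops5 was 71.4 ± 6.74 in melanoma and 58.6 ± 11.6 in T cells, and Cul3 was 93.8 ± 17.4 in B cells and 76.2 ± 3.71 in melanoma cells. T cells overlapped melanoma cells for Cops5, and for Cul3 every pair of neighbors overlapped.

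The complexes that the regulators belong to differed in how their other members went, by the same edgeR test. Of all genes tested, 38.2% were higher and 35.8% lower against immune cells, and 34.9% higher and 34.4% lower against stromal cells. Of the 9 other COP9 signalosome genes, 8 were higher in melanoma than in immune cells and none lower, with a median log2 difference of 0.70 beside 0.09 for all genes. Cops7a at 2.22 (SE 0.12), Gps1 at 1.57 (SE 0.11) and Cops3 at 1.04 (SE 0.12) had the lowest p. Against stromal cells 5 of 9 were higher, led by Cops7a at 1.22 (SE 0.11). Of 11 genes of cullin-RING ligases, 5 were higher and 1 lower than in immune cells, among them the scaffolds Cul1 at 1.01 (SE 0.09) and Cul5 at 1.01 (SE 0.13), and 5 were higher and 2 lower than in stromal cells, where Keap1, a CUL3 adaptor, was -0.73 (SE 0.12). USP22 works within the SAGA complex, and 2 of its 3 partner genes were lower in melanoma than in immune cells, Atxn7 at -1.93 (SE 0.13) and Atxn7l3 at -1.03 (SE 0.12), while Eny2 at 0.60 (SE 0.13) was higher. Of 5 chaperone partners of STUB1, 3 were higher than in immune cells and 4 higher and 1 lower than in stromal cells. Hsp90aa1 was 1.55 (SE 0.10) and the cochaperone Bag2 2.15 (SE 0.17) against immune cells. Of 5 genes of the β-catenin destruction complex in which GSK3 works, Ctnnb1 (β-catenin) was higher at 2.29 (SE 0.15) and Axin1 lower at -0.92 (SE 0.14) than in immune cells, and the other 3 did not pass.

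Other genes known to act on PD-L1 protein were mixed, where 74% of all genes passed against immune cells and 69.3% against stromal cells. Of 9 other E3 ligase genes, 3 were higher and 6 lower in melanoma than in immune cells: Tnfaip3 (A20) at -7.97 (SE 0.17) and Itch at -1.03 (SE 0.10) were lower and March8 at 1.70 (SE 0.23) higher. Of 3 other deubiquitinase genes Usp9x alone passed, at -0.24 (SE 0.10). Of 3 other kinase genes the AMPK subunits Prkaa2 at 4.93 (SE 0.62) and Prkaa1 at 1.07 (SE 0.17) were higher. Of 5 genes of N-glycosylation and export 2 were higher and 2 lower, with the oligosaccharyltransferase subunit Stt3b at 0.77 (SE 0.10). Of 5 genes of palmitoylation and trafficking Rab8a alone passed, at -1.72 (SE 0.10). The deacetylase gene Hdac2 was higher at 0.98 (SE 0.11) and the acetyltransferase gene Ep300 lower at -0.78 (SE 0.14). Against stromal cells 3 of the E3 ligase genes were higher and 4 lower, and 4 of 5 genes were lower in both the glycosylation and the trafficking list.

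Within the melanoma cells, 16607 cells fell into 10 clusters found without the genes listed here, each with at least 59 cells in every library. Levels by cluster are a description with no test. The largest departures were in cluster 1, led by Ero1l, Espn, Nppb, Pgf and Car9 with Vegfa and Bnip3, among which Car9, Vegfa and Bnip3 are known targets of the response to low oxygen. Cmtm4 had 55.4 and 60.3 CPM in its shMib2-labelled and 55.1 CPM in its shCtrl-labelled cells, 2.04 times the median cluster. Usp22 had 48.0 and 42.7 CPM in its shMib2-labelled and 40.7 CPM in its shCtrl-labelled cells (1.77 times) and Gsk3b 227 and 229.8 CPM in its shMib2-labelled and 217 CPM in its shCtrl-labelled cells (1.48 times). Stub1 went the other way, with 129 and 120.4 CPM in its shMib2-labelled and 129 CPM in its shCtrl-labelled cells, 0.549 times the median cluster. In all 3 libraries cluster 1 was the highest of the 10 for Cmtm4, Usp22 and Gsk3b and the lowest for Stub1.

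Cluster 5, which also has Vegfa and Bnip3 among its leading genes, had 1.48 times the median for Cmtm4, 1.31 for Usp22, 1.08 for Gsk3b and 0.927 for Stub1. Stub1 was highest in cluster 4, led by mitosis genes such as Prc1 and Cenpf, at 1.17 times. Cmtm6 spanned 0.903 to 1.25 times the median, Spop 0.918 to 1.1, Cul3 0.899 to 1.19 and Cops5 0.852 to 1.21. In cluster 13, led by interferon-induced genes, Cd274 was 8.83 times the median cluster, while the 8 regulators stood at 0.90 to 1.08 times.

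**Figure D3:**
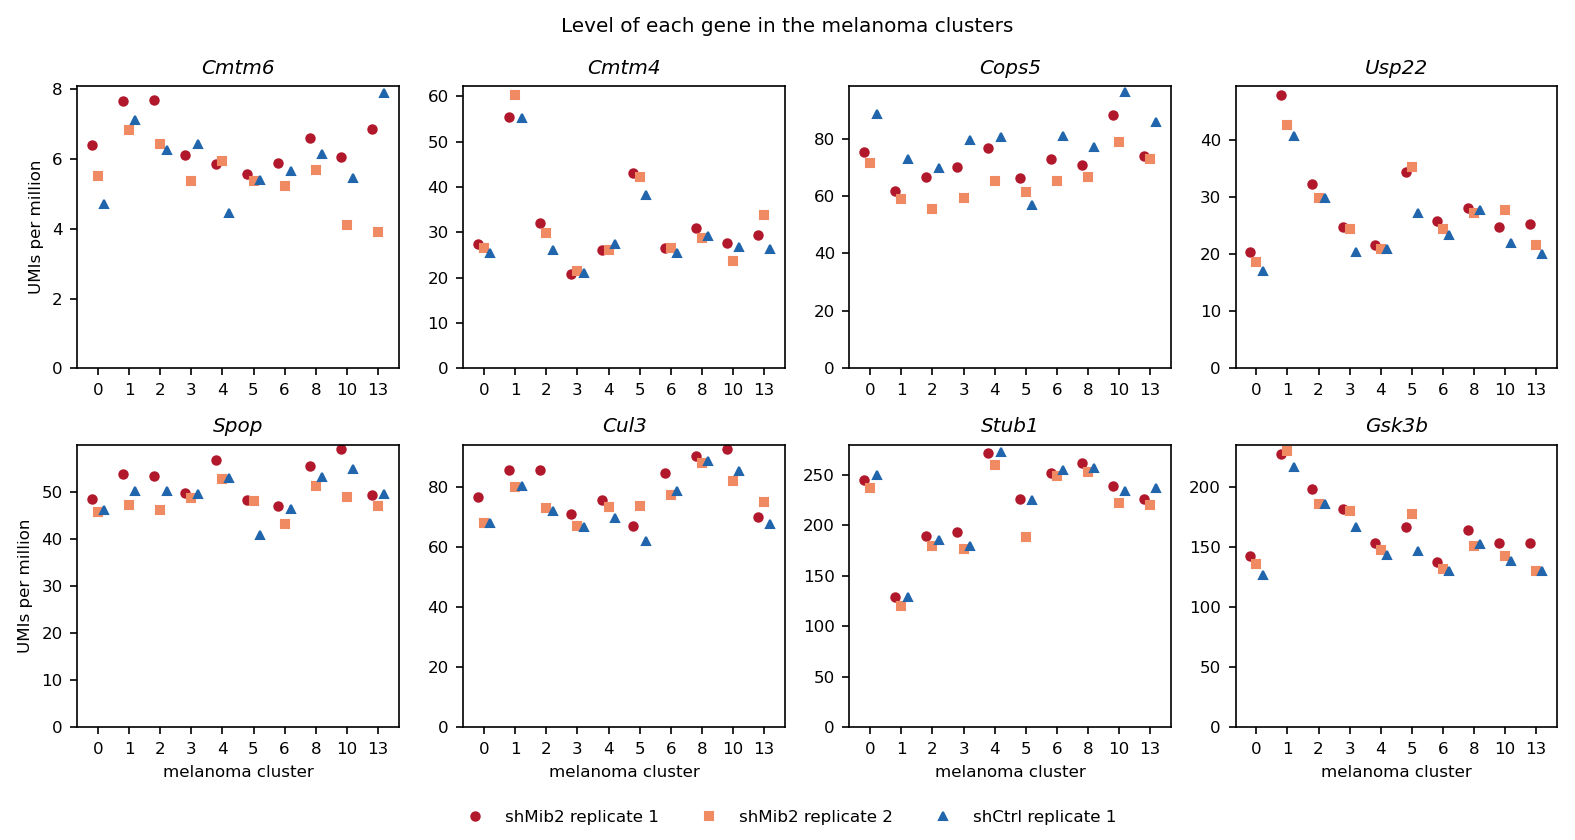
Level of each gene in CPM (vertical axis) in the 10 melanoma cell clusters (horizontal axis), with 1 point for each library. Cluster 1 is the highest for Cmtm4, Usp22 and Gsk3b and the lowest for Stub1, with Cmtm4 at 55.1 to 60.3 CPM there.

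Melanoma cells rich in mitosis RNA differed from those poor in it most of all in Stub1. Cells of each library were ranked by the share of their UMIs in 20 mitosis genes, none of them among the 8, and the top 25% was compared with the bottom 25%. The score is continuous: 281 and 125 cells of the shMib2-labelled and 360 of the shCtrl-labelled library lay within 10% of the upper limit. All 8 regulators passed the edgeR test, 4 higher and 4 lower in the top 25%, where 71.6% of all 13679 genes passed (36.2% higher, 35.5% lower). Stub1 had 261 and 251 CPM in the shMib2-labelled and 260.5 CPM in the shCtrl-labelled top 25%, against 161 and 149.7 CPM in the shMib2-labelled and 158 CPM in the shCtrl-labelled bottom 25%. The top 25% lay above the bottom 25% in every library, and the log2 difference was 0.76 (SE 0.02) (edgeR adjusted p = 4.65e-15), past the threshold in 12 of 12 other settings.

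Gsk3b had 158 and 151 CPM in the shMib2-labelled and 151 CPM in the shCtrl-labelled top 25%, against 210.1 and 199 CPM in the shMib2-labelled and 194 CPM in the shCtrl-labelled bottom 25%. It was lower in the top 25% in every library, with a log2 difference of -0.35 (SE 0.02) (edgeR adjusted p = 4.77e-10). Usp22 at -0.31 (SE 0.04), Cmtm6 at -0.29 (SE 0.07) and Cmtm4 at -0.26 (SE 0.05) were also lower, and Cops5 at 0.27 (SE 0.03), Spop at 0.18 (SE 0.03) and Cul3 at 0.18 (SE 0.03) higher. Cd274 was lower at -0.56 (SE 0.11). With each cell thinned to 5000 UMIs before scoring, 4 of 8 still passed (Stub1, Gsk3b, Usp22 and Cul3).

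The top and bottom 25% differed in depth and in cluster. Median UMIs per cell were 31440.5 and 56035.5 in the shMib2-labelled and 33254.5 in the shCtrl-labelled top 25%, against 20728.5 and 36532 in the shMib2-labelled and 21445.5 in the shCtrl-labelled bottom 25%. Clusters 1 and 5, led by Vegfa and Bnip3, held 10.8% and 8.89% of the shMib2-labelled and 12.4% of the shCtrl-labelled top 25%, against 35.1% and 34.1% of the shMib2-labelled and 36.7% of the shCtrl-labelled bottom 25%. Without these clusters, a setting chosen after seeing the data, Cmtm4 turned to 0.18 (edgeR adjusted p = 0.0103), Usp22 shrank to -0.12 and Cmtm6 to -0.20, Gsk3b stood at -0.26, and Stub1 at 0.64 kept most of its difference.

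**Figure D4:**
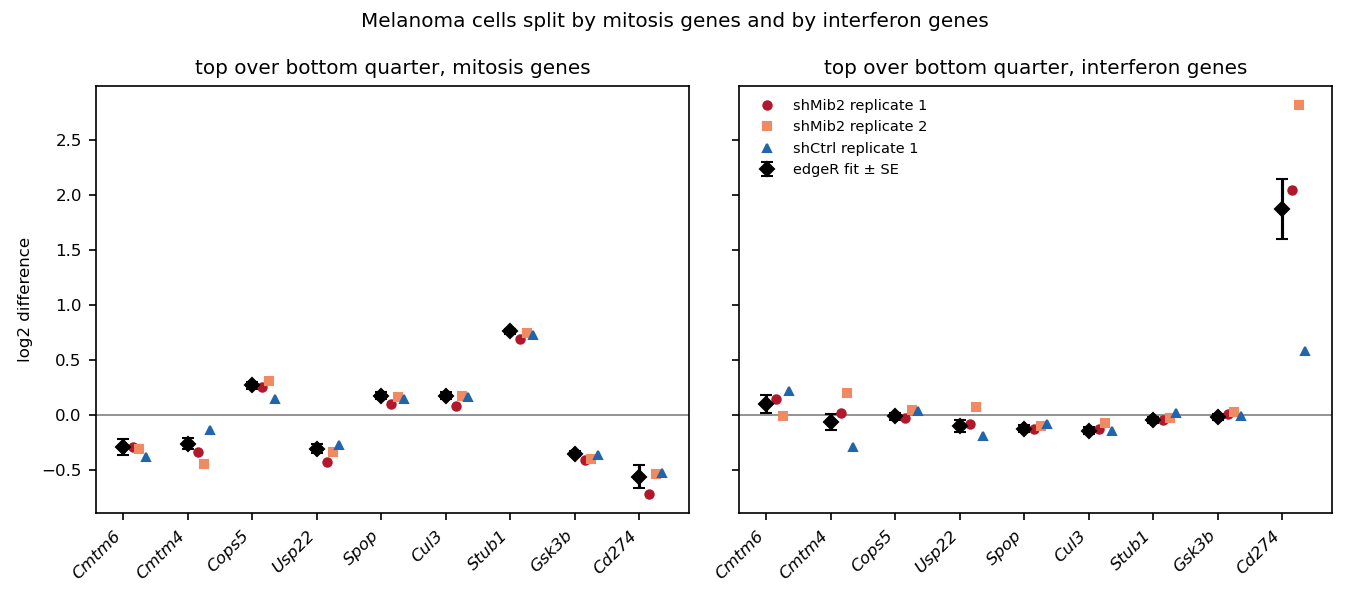
Fitted log2 difference of the top over the bottom 25% of melanoma cells (vertical axis), by mitosis genes and by interferon genes, with bars for the standard error and points for single libraries. Stub1 stands at 0.76 for mitosis, and the 8 regulators lie near 0 for interferon where Cd274 stands at 1.87.

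In the same mitosis comparison 71.6% of all genes passed (36.2% higher, 35.5% lower), so counts in the lists below are read beside these shares. Of the other COP9 signalosome genes, 8 of 9 were higher and 1 lower in the top 25% by mitosis genes by the same edgeR test, led by Gps1 at 0.67 (SE 0.03), with a median of 0.30 beside -0.01 for all genes. Of the cullin-RING genes 7 of 11 were higher and 1 lower. Of the chaperone partners of STUB1, 4 of 5 were higher and 1 lower: Hsp90aa1 was 0.62 (SE 0.02) and Hspa8 0.36 (SE 0.02), while Bag2 was -0.83 (SE 0.04). Of the other E3 ligase genes 1 was higher and 7 of 9 lower, with Fbxo22 at 0.36 (SE 0.03) and March8 at -0.42 (SE 0.05).

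Ranking the same cells by 20 interferon-induced genes separated Cd274, a gene known to be induced by interferon-γ, more than any of the 8 regulators. Near the upper limit (within 10%) lay 306 and 190 cells of the shMib2-labelled and 686 of the shCtrl-labelled library. Cd274 had 7.43 and 8.63 CPM in the shMib2-labelled and 2.16 CPM in the shCtrl-labelled top 25%, against 1.80 and 1.23 CPM in the shMib2-labelled and 1.44 CPM in the shCtrl-labelled bottom 25%. Every top value lay above every bottom value, least so in the shCtrl-labelled library, and the log2 difference was 1.87 (SE 0.27) (edgeR adjusted p = 0.000525, 12 of 12 other settings). Of the 8 regulators 2 passed, both lower, where 27.2% of all 13512 genes passed and 14.2% were lower: Cul3 at -0.14 (SE 0.03) (edgeR adjusted p = 0.00595) and Spop at -0.13 (SE 0.03) (edgeR adjusted p = 0.0156). Cul3 had 77.5 and 73.8 CPM in the shMib2-labelled and 69.9 CPM in the shCtrl-labelled top 25%, against 84.4 and 77.6 CPM in the shMib2-labelled and 77.3 CPM in the shCtrl-labelled bottom 25%. It was lower in the top 25% of each library, and the ranges of the top and bottom 25% overlapped. No regulator passed in DESeq2, after thinning to 5000 UMIs, without library as a block or without shMib2 replicate 1, 1 passed without shMib2 replicate 2, and 5 passed when the top and bottom 10% were compared. Cmtm6 and Cmtm4 stood at 0.10 (SE 0.08) and -0.06 (SE 0.07). Of the related genes, the E3 ligase gene Trim21, itself known to be induced by interferon, was higher at 2.12 (SE 0.18), and Cmtm3 at 0.27 (SE 0.04).

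Between the labelled groups, none of the 8 regulators differed past the threshold in melanoma cells. By edgeR's quasi-likelihood test 0 of 8 passed, where 0.6% of all 15673 genes passed (94 genes, all higher in shMib2-labelled cells). DESeq2 called 0 of the 8 too, and at an unadjusted p under 0.05 edgeR gave 2479 of all genes and, of the 8, Cops5 alone. Cops5 had 71.5 and 64.7 CPM in shMib2-labelled and 78.2 CPM in shCtrl-labelled melanoma cells. Both shMib2-labelled values were below the shCtrl-labelled one, with a log2 difference of -0.24 (SE 0.05) (edgeR adjusted p = 0.170, and 0.0858 to 0.401 over the other settings). The other 7 had fitted log2 differences from -0.08 (Stub1) to 0.11 (Usp22). Cd274 was higher in both shMib2-labelled libraries, 0.93 (SE 0.11) on the log2 scale, and just passed (edgeR adjusted p = 0.0485, past the threshold in 4 of 8 other settings with a range of 0.00413 to 0.266). No other gene of the lists described here passed. Melanoma cells of the shMib2-labelled libraries also held more interferon RNA: the median cell of the top 25% had 0.192% and 0.182% of its UMIs in the 20 interferon genes in the shMib2-labelled libraries and 0.10% in the shCtrl-labelled one. Of 65 immune marker genes, 53 were higher in the melanoma cells of both shMib2-labelled libraries, a share not compared with that of all genes. Ptprc, the pan-leukocyte gene CD45, had 0.905 and 0.995 CPM in shMib2-labelled and 0.0718 CPM in shCtrl-labelled melanoma cells. Summed by list, T cell, NK cell, neutrophil and plasmacytoid dendritic cell markers were higher in both shMib2-labelled libraries. Mononuclear phagocyte markers were lower in both (1405 and 1345 against 1572 CPM), and B cell and dendritic cell markers were mixed. The summed level of the 65 genes, some of which melanoma cells also express, was 2092 and 1998 CPM in shMib2-labelled and 2178 CPM in shCtrl-labelled melanoma cells, with 2 and 1 genes at 0 in the shMib2-labelled libraries and 10 in the shCtrl-labelled one. Immune cells held 37.5 and 46.1 CPM of Cd274 in the shMib2-labelled libraries and 17.7 CPM in the shCtrl-labelled one. Scaled by Ptprc, immune RNA came to 1.23% and 1.73% of the Cd274 level of shMib2-labelled melanoma cells and 0.109% of that of shCtrl-labelled ones. The part of interferon RNA in the Cd274 difference was not tested, nor was that of stromal RNA. Col1a1 had 7.71 and 3.64 CPM in shMib2-labelled and 1.44 CPM in shCtrl-labelled melanoma cells. Of 30 stromal marker genes, 15 were higher in both shMib2-labelled libraries, a share that was not compared with that of all genes either. The summed fibroblast list was higher in both. The endothelial list (60.9 and 56.0 against 66.3 CPM) and the pericyte or smooth muscle list were lower in both.

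**Figure D5:**
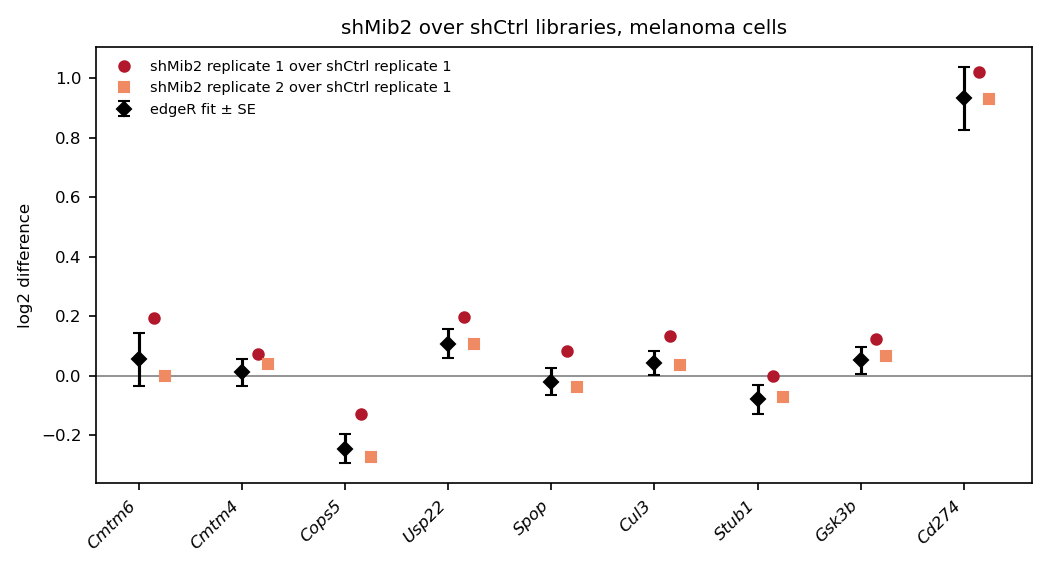
Fitted log2 difference of shMib2-labelled over shCtrl-labelled libraries (vertical axis) for each gene in melanoma cells, with bars for the standard error and points for each shMib2-labelled library against the shCtrl-labelled one. The 8 regulators lie close to 0 with Cops5 the lowest.

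In T cells 0 of 8 regulators passed the same edgeR test and 0 in DESeq2, where 0.733% of all 8596 genes passed (0.349% higher, 0.384% lower) and 801 had an unadjusted p under 0.05. In NK cells 7 of 8 (all but Cmtm4) had counts enough to test and 0 passed in either tool, where 0.201% of 6467 genes passed (0.0928% higher, 0.108% lower) and 484 had an unadjusted p under 0.05. The shCtrl-labelled library set the limit, with 82 T cells and 46 NK cells. Cmtm6 had 35 and 77 UMIs in shMib2-labelled and 4 in shCtrl-labelled T cells, and Stub1 110 and 221 against 18. In simulated T cell data, 4 of 100 genes changed by 1 on the log2 scale and 47 of 100 changed by 2 were recovered. The changed genes were drawn from all 8596 tested, not at the counts of the regulators. Differences of the size seen between melanoma and host cells could thus be missed in T cells. Spop in NK cells stood at 2.40 (SE 1.05) (edgeR adjusted p = 0.602), with 37 and 85 UMIs in shMib2-labelled cells and 1 in shCtrl-labelled cells. Usp22 had 13 and 19 UMIs in shMib2-labelled NK cells and 0 in shCtrl-labelled ones.

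The genes whose levels followed each regulator most closely over the 15 class and library sums of the 5 classes (Pearson r of log2 CPM plus 1, among 5984 genes averaging at least 20 CPM) are given as a description. The sums share libraries and differ widely in depth, so r says nothing of shared control. For Cmtm6 they were Unc119b (0.88), Parp4 (0.87), Ccdc9 (0.87), and for Cmtm4 Echs1 (0.96), Avpi1 (0.96), Cfap20 (0.93). For Spop they were Selenoi (0.95), Ccdc6 (0.94), Slc25a51 (0.92), for Cul3 Arfgap2 (0.89), Rnf220 (0.88), Vps51 (0.88) and for Stub1 Napa (0.97), Scoc (0.96), Bsg (0.96). For Cops5 they were Bpnt1 (0.91), Mrps11 (0.91), Nelfe (0.90), for Usp22 Adam17 (0.99), Ncstn (0.97), Rnf19a (0.96) and for Gsk3b Trnt1 (0.96), Rheb (0.94), Map2k2 (0.94).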

How the data were processed

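Single cells of B16-F10 tumors were profiled in 3 libraries, 2 labelled shMib2 and 1 labelled shCtrl. The authors deposited UMI counts per gene and barcode, per the labels made with Cell Ranger 4.0.0 on mm10, with no normalization. Further counting settings are not given in the sources used here. A barcode needed 200 or more genes and no more than 20% of UMIs from mitochondrial genes, and predicted doublets (0.8% per 1000 barcodes) were removed. Clusters (2000 variable genes, 30 components, Leiden resolution 1) left out 78 listed genes and were named where at least 3 markers stood among the top 50 genes, each with UMIs in at least 20% of cells.

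UMIs were summed per library and class and tested with edgeR 4.0.16 (quasi-likelihood, TMM, filterByExpr) in R 4.3.3, with Benjamini-Hochberg adjustment over all genes at 0.05 and library as a block between classes or score groups. DESeq2 1.42.0, other size factors, no filter on low counts, other gates, thinning, score groups of 10%, doublets kept, a strict cell filter (500 genes, 10% mitochondrial), and leaving out each library were the alternatives, and leaving out 2 melanoma clusters was added after seeing the data. Intervals of levels are exact Poisson 95% intervals, a count of 0 is read as up to 3 counts, and both cover counting error only.

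The genes named are the 8 regulators, Cd274, Mib2, at most 3 genes a list with the lowest p and the 3 genes most like each regulator. Regulators and lists were chosen with earlier results of these data known. In simulated counts, 71 and 95 of 100 genes changed by 1 and 2 on the log2 scale were recovered between labelled groups in melanoma cells (15673 genes), 76 and 87 between melanoma and immune cells (12900 genes), and 94 and 98 in the mitosis comparison (13679 genes). Unchanged genes gave 12, 24 and 22 false calls in the same order. Each simulation changed 200 genes, far fewer than passed in the real class and mitosis comparisons, so error rates under such broad change were not tested. The shCtrl library shares no pairing with the shMib2 libraries. The other cells (2252 in no class, among them an unnamed cluster of low-RNA barcodes) were left out.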

Additional observations from a re-analysis of the deposited data

Results flagged for a closer look

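For Usp22, the difference between labelled groups ran opposite ways in melanoma cells and T cells. Mean CPM gave a log2 ratio, shMib2 over shCtrl, of 0.15 in melanoma cells, higher in both shMib2-labelled libraries, and of -0.99 in T cells, lower in both, and the ratios differ by 1.15. Cul3 did the same, with 0.09 in melanoma cells and -0.51 in T cells, 0.593 apart. Neither difference was tested. Usp22 and Cul3 were picked from a screen of every regulator in T cells and in NK cells. No other pair of gene and class ran opposite to melanoma cells in each shMib2-labelled library. Cmtm4 in either class and Usp22 in NK cells gave no ratio. How often all genes do the same was not determined, so whether these pairs exceed the background was not tested. The shCtrl-labelled T cells held 5 UMIs of Usp22 and 16 of Cul3, and neither gene passed the edgeR test in either class. Every library is set against the same shCtrl-labelled library, so its counts enter both ratios.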

How the results depend on the processing

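Of the values for the 8 regulators over all alternatives, 509 kept their direction and side of the threshold, 52 no longer passed, 8 newly passed, 27 changed sign and 4 without a test moved. Nearly all sign changes were of log2 differences near 0. Over stromal cells, they were Cul3 -0.0981 in DESeq2, Cul3 -0.13 with DESeq2's size factors in edgeR, Cul3 -0.0429 with Dct and Pmel at 1% or more, Cul3 -0.0488 and Cd274 1.27 and Gsk3a -0.18 and Prkaa1 -0.24 and Atxn7 0.0286 thinned to 1000 UMIs, Cul3 -0.00757 without the replicate block, Cul3 -0.00755 to 0.22 with 1 library left out and Zdhhc3 -0.49 to 0.0155 with 1 library left out. In the interferon comparison they were Cops5 0.0383 and Gsk3b 0.00852 and Btrc -0.0534 thinned to 5000 UMIs, Cmtm6 -0.00800 and Cops5 0.0283 and Stub1 0.0193 with 10% in place of 25%, Cmtm4 0.0325 and Usp22 0.0416 and Gsk3b 0.0481 without the clusters led by Vegfa and Bnip3, Cmtm4 -0.17 to 0.0836 with 1 library left out and Cops5 -0.0202 to 0.00782 with 1 library left out, and in the mitosis comparison Cmtm4 0.18 without the clusters led by Vegfa and Bnip3. Between shMib2-labelled and shCtrl-labelled libraries they were Spop 0.00554 with Dct and Pmel at 1% or more, Spop 0.0266 thinned to 5000 UMIs, Cmtm6 -0.0199 to 0.13 with 1 library left out and Spop -0.0555 to 0.0208 with 1 library left out in melanoma cells, Cmtm6 0.0126 with no filter on low counts in T cells, and Cops5 0.0157 and Stub1 0.0990 with no filter on low counts, Gsk3b -0.0645 with the strict cell filter, Gsk3b -0.0606 to 0.0646 with 1 library left out and Cul3 -0.19 to 0.26 with 1 library left out in NK cells. The cause was not tested. The counts of regulators called moved over stromal cells (7) to 4 in DESeq2, 4 with DESeq2's size factors in edgeR and 3 thinned to 1000 UMIs, with 3 to 7 when 1 library was left out. They moved in the mitosis comparison (8) to 4 thinned to 5000 UMIs, and in the interferon comparison (2) to 0 in DESeq2, 0 thinned and 5 with 10% in place of 25%, with 0 to 2 when 1 library was left out. Over immune cells (7) they stayed between 5 and 8. Of all genes, 94 were called between the labelled groups in melanoma cells, and 258 in DESeq2, 54 with Dct and Pmel at 1% or more, 47 thinned to 5000 UMIs, 148 in cells with 10000 or more UMIs, 5 with no filter on low counts, 268 with predicted doublets kept and 172 with the strict cell filter. In T cells 63 were called, and 6 in DESeq2, 32 with DESeq2's size factors in edgeR, 97 with no filter and 26 with doublets kept. In NK cells 13 were called, and 1 in DESeq2 and 0 with the strict cell filter. Over stromal cells 8939 genes were called, and 4139 thinned, in the mitosis comparison 9801, and 6449 thinned, and in the interferon comparison 3680, and 1647 in DESeq2 and 1202 thinned. With 1 library left out, 5988 to 10014 genes were called over immune cells, 5357 to 9502 over stromal cells and 1844 to 3930 in the interferon comparison.

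Classes and score groups come from the same library, so the fits kept library as a replicate block. With no replicate block, 6 of 8 regulators were called over immune cells, 7 over stromal cells, 8 in the mitosis comparison and 0 in the interferon comparison (1402 of all genes). No paired analysis was possible because the labels give the shCtrl library no number, for the contrast between the labelled groups. Leaving out either shMib2 library from that contrast left 1 library a group, with values but no test. The shCtrl-labelled library held 82 T cells, 46 NK cells and 24 stromal cells, which limits the precision of their values.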
